A study of Mus musculus with 23 samples.

Results

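The 35 genes described here are the genes of red cell development and of haem synthesis that were listed by name, and their probes were found through the RefSeq accession printed on the array design. Of the 35 listed genes, 33 had a probe and all 33 were tested, among 13765 tested genes in all, while Ahsp and Tal1 matched no probe. The samples were 9 B lymphoma lines grown in suspension from tumour-bearing spleens of Atm-knockout, Cd3e-knockout mice (lymphoma lines), 6 tumour-free spleens of Atm-knockout, Cd3e-knockout mice (KO spleens, all female) and 7 spleens of Atm-wild-type, Cd3e-knockout mice (WT spleens, 4 male and 3 female). All mice were of the background C57BL/6 x 129 and all carried the Cd3e deletion, the loss of a T cell receptor chain, so no group had a wild-type Cd3e gene. Ages are not given in the sources used here, and nothing says how spleens or lines relate to litters. The p-values therefore treat these samples as independent, which could not be checked.

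Red cells are made from progenitors under the transcription factors Gata1 and Klf1 and the hormone receptor Epor, and the adult mouse spleen is an erythropoietic organ beside the marrow. Haem is built in a chain of enzymes that every cell carries, but red cell precursors start the chain with their own synthase, Alas2, while other cells use Alas1. The mature cell is filled with globin and bounded by a membrane skeleton of spectrin, ankyrin and band 3, which carry the blood group proteins.

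Each sample was hybridised to a 1-colour Agilent array, and a level is the log2 of the processed signal minus the 75th percentile of that array, so that 0 marks that percentile and 1 unit is a doubling. Levels are compared between samples for 1 gene, since probes differ in brightness. The 23 arrays lay on 6 slides, and 1 line was hybridised on 2 arrays that were averaged. Of the spots, 55.0 to 62.27% passed the scanner software's test for signal well above background on the arrays of the lines, 62.29 to 67.45% in KO spleens and 61.41 to 66.7% in WT spleens. The number of arrays limits the precision of every value. Outside the listed genes, Cldn13, a claudin of mouse red cell precursors, passed that test in 0 of 9 lines, 6 of 6 KO spleens and 7 of 7 WT spleens.

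The promoters of 5 members are printed because they set red cell genes beside a haem enzyme of all cells. Each runs from 250 bases before to 50 after the start site, 5′ to 3′, from RefSeq on GRCm38.p6. Capitals mark matches to the GATA motif (AGATAA or AGATAG or TGATAA or TGATAG) or the CACCC motif (CCNCNCCC) on either strand, the letters bound by Gata1 and Klf1. Alas2 lies at chrX:150547167-150547466, plus strand, Hba-a1 at chr11:32283422-32283721, plus strand, Epor at chr9:21963527-21963826, minus strand, Kel at chr6:41704276-41704575, minus strand and Urod at chr4:116994364-116994663, minus strand.
Alas2: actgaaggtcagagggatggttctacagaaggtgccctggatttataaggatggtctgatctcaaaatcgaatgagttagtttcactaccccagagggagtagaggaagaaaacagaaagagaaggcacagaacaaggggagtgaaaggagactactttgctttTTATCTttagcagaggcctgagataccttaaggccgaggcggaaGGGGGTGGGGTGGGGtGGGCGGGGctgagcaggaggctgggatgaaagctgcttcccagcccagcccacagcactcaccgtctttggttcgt
Hba-a1: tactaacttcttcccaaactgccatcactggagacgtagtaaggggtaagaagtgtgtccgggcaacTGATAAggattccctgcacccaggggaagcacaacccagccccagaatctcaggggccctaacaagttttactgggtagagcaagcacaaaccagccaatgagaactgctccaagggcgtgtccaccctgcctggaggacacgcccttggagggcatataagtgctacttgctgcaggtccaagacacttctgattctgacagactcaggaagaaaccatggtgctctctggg
Epor: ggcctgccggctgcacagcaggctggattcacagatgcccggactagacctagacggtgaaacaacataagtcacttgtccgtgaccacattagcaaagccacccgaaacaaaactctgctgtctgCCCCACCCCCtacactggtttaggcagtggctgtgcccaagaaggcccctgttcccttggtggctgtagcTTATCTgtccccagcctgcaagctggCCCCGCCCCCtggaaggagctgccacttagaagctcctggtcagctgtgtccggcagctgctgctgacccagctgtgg
Kel: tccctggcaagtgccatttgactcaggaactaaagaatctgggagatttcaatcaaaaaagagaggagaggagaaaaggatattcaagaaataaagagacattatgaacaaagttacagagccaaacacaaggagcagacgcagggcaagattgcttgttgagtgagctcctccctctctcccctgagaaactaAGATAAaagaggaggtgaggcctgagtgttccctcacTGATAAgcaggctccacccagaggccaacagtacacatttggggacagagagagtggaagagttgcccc
Urod: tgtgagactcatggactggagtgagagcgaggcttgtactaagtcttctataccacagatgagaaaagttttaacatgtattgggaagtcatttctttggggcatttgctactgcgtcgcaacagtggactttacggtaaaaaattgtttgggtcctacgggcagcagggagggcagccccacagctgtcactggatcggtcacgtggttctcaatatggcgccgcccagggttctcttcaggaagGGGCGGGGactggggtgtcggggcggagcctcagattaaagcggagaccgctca

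Promoter entries were found for 27 members. A GATA match lay in 13 of 15 windows of red-cell-restricted members (86.7%), in 2 of 7 windows of the haem enzymes of all cells (28.6%) and in 29.8% of all 32851 windows. The CACCC letters gave another order, with 53.3% of the restricted windows, 85.7% of the haem enzyme windows and 49.5% of all windows. Overlapping CACCC matches were kept, and a match is a description of letters. Gata1 and Tspo2 were the restricted members with no GATA match in the window.

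In the lymphoma lines the red-cell-restricted members were low or at background, whereas the haem enzymes of all cells stayed well above it. Of the 33 members, 27 fell in the lines against KO spleens and 0 rose (limma, adjusted p under 0.05), while 29.5% of all tested genes fell and 40.4% rose. Against WT spleens 27 fell and 1 rose, beside 31.6% of all tested genes lower and 39.3% higher. Both comparisons use the same lines and are given side by side. The members passed the filter on dim probes, which asked for 6 of 22 samples well above background, and many passed through the spleens alone, so the counts carry no weight beyond a description. The median difference of the members was -6.36 against KO spleens and -5.47 against WT spleens, beside 0.15 and 0.11 over all tested genes. In bulk samples, fewer cells of a type and less RNA per cell cannot be told apart.

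**Figure D1:**
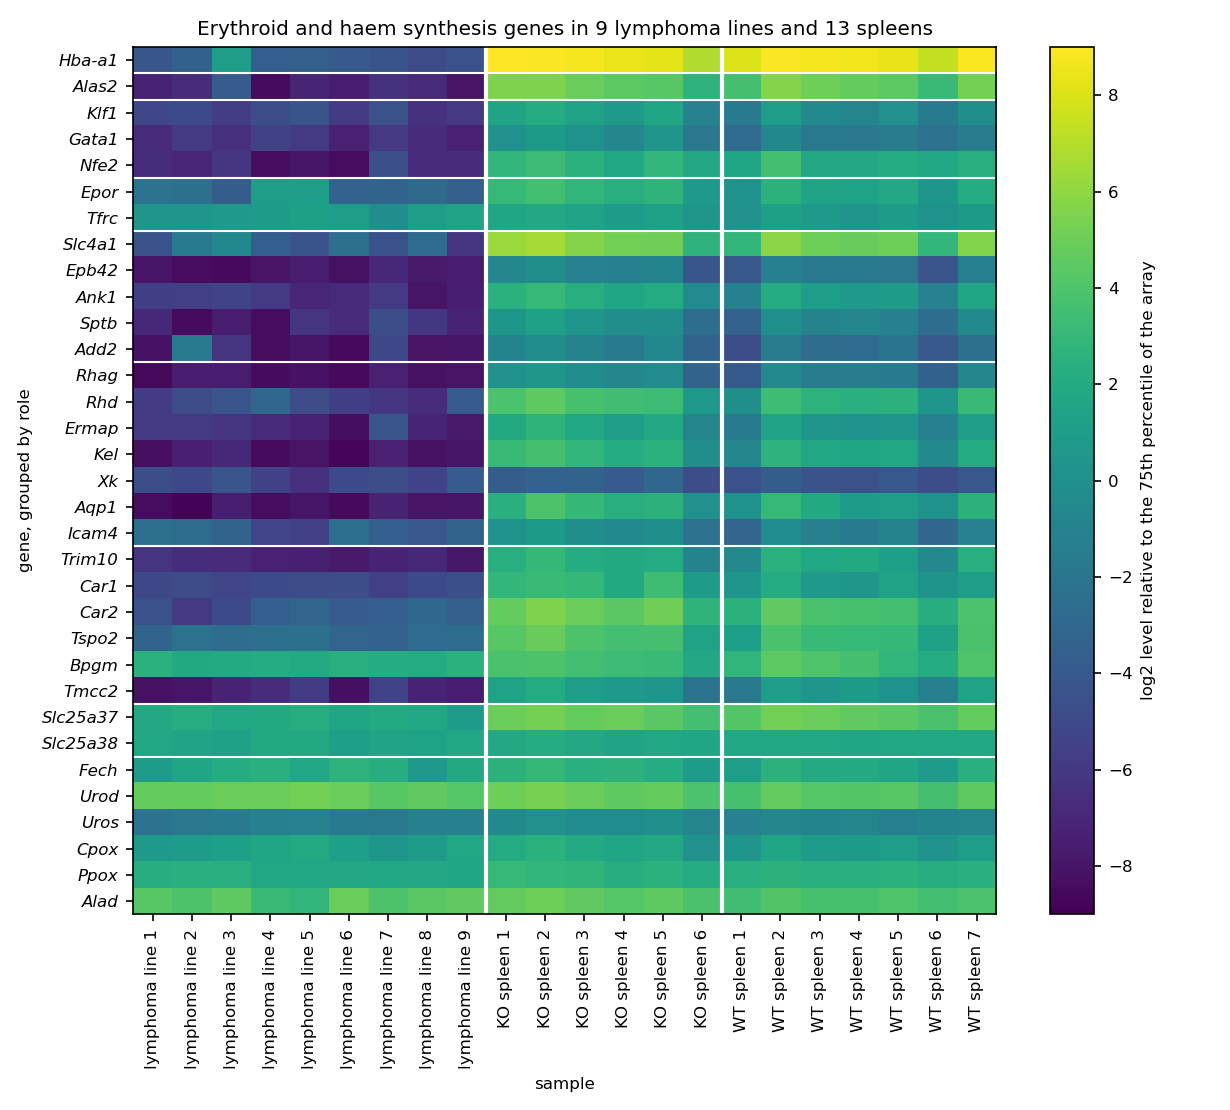
Log2 level of each of 33 members (rows, grouped by role) in 9 lymphoma lines, 6 KO spleens and 7 WT spleens (columns), with white lines between groups and roles. Rows should be read along a gene; the red cell genes are dark in the lines, the 6 haem enzymes at the bottom are not, and KO spleen 6, WT spleen 1 and WT spleen 6 are the darkest of the spleens for many rows.

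Among the globin and synthase genes, Hba-a1, the alpha globin chain, ran from -4.82 to 1.01 with a median of -3.94 in the lines, from 6.84 to 9.16 with a median of 8.59 in KO spleens and from 7.34 to 8.89 with a median of 8.6 in WT spleens. The lines and spleens did not overlap, and Hba-a1 was well above background in all 9 lines. Its log2 difference was -11.87 ± 0.63 (SE, limma adjusted p = 2.94e-13) against KO spleens and -11.88 ± 0.6 against WT spleens. Alas2, the red cell form of the first haem enzyme, ran from -8.48 to -3.85 with a median of -7.13 in the lines, from 2.61 to 5.52 with a median of 4.69 in KO spleens and from 3.23 to 5.68 with a median of 4.73 in WT spleens. The groups did not overlap here either, and 2 of 9 lines had Alas2 well above background, or 1 where both arrays of line 8 had to pass, so most line levels are background readings. Its measured difference was -11.47 ± 0.57 against KO spleens and -11.51 ± 0.54 against WT spleens. By contrast Alas1, the synthase of other cells and not a member, averaged 2.57 ± 0.27 in the lines, 2.37 ± 0.33 in KO spleens and 2.33 ± 0.39 in WT spleens (SD, n = 9, 6 and 7), and its difference of 0.2 ± 0.17 from KO spleens was not called.

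The transcription factors were all lower in the lines. Gata1, the master factor of the lineage, had a median of -6.6 in the lines, 0.16 in KO spleens and -1.75 in WT spleens, and 2 of 9 lines had it well above background. Its measured difference was -6.31 ± 0.37 against KO spleens and -4.78 ± 0.36 against WT spleens. Klf1, the activator of adult globin genes, passed that test in 7 of 9 lines and differed by -6.36 ± 0.47 and -4.83 ± 0.45. Nfe2, a factor shared with megakaryocytes, had measured differences of -9.51 ± 0.47 and -9.12 ± 0.45 and passed it in 2 of 9 lines. Most line levels of Gata1 and Nfe2 are therefore background readings.

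The receptors parted. Epor, the erythropoietin receptor, ran from -3.68 to 1.12 with a median of -2.81 in the lines, from 0.65 to 3.58 with a median of 2.79 in KO spleens and from 0.23 to 2.55 with a median of 1.54 in WT spleens, so the groups overlapped through 2 lines. Epor fell by 4.63 ± 0.71 against KO spleens and by 3.55 ± 0.67 against WT spleens. Tfrc, the transferrin receptor that every dividing cell uses for iron, had a median of 0.86 in the lines, 1.34 in KO spleens and 0.65 in WT spleens. It was not called in either comparison, at -0.46 ± 0.24 and 0.18 ± 0.23.

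All 5 members of the membrane skeleton and band 3 group fell in both comparisons. Slc4a1, the anion exchanger band 3, passed the background test in 8 of 9 lines and differed by -8.57 ± 0.74 against KO spleens and -7.93 ± 0.71 against WT spleens. Ank1, the ankyrin that ties band 3 to spectrin, had measured differences of -8.3 ± 0.55 and -7.05 ± 0.53, and Sptb, the beta spectrin chain, of -6.86 ± 0.61 and -5.6 ± 0.59. Ank1 passed the background test in 4 of 9 lines and Sptb in 1, so most of their line levels are background readings. The sizes also depend on the probe, though every probe of both genes was called lower. Dimmer Ank1 probes differed by -3.91 to -8.26 against KO spleens and by -2.73 to -7.09 against WT spleens. Dimmer Sptb probes differed by -2.27 and -6.51 against KO spleens and by -1.9 and -5.29 against WT spleens. Epb42, a band 3 partner, was well above background in no line and was at least 28.0-fold lower than in KO spleens and at least 14.7-fold lower than in WT spleens. Such bounds set the dim level on each array to the lowest signal well above background.

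Surface and blood group members fell as well, 7 of 7 in both comparisons. Kel, the Kell antigen, was at least 370.0-fold lower in the lines than in KO spleens and at least 171.0-fold lower than in WT spleens, and Aqp1, the water channel, at least 376.0-fold and 190.0-fold. Rhag, the Rh-associated glycoprotein, was at least 45.6-fold and 19.9-fold lower. None of Kel, Aqp1 and Rhag was well above background in any line. Rhd differed by -8.31 ± 0.64 and -7.12 ± 0.62, and passed the background test in 8 of 9 lines, or 7 where both arrays of line 8 had to pass. Ermap, a red cell adhesion protein, had measured differences of -8.03 ± 0.59 and -6.75 ± 0.57 with 3 of 9 lines above background, so most of its line levels are background readings. Xk, the partner of Kell, moved least, at -1.33 ± 0.32 and -0.7 ± 0.3, and its levels of -6.49 to -3.73 in the lines, -4.72 to -3.04 in KO spleens and -4.73 to -3.67 in WT spleens overlapped. Its dimmer probe was not called against WT spleens, at -0.41 (limma adjusted p = 0.0838). Icam4, an adhesion molecule of the erythroblast island, differed by -3.3 ± 0.56 and -2.02 ± 0.54.

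Among the cytoplasmic members, the carbonic anhydrases Car1 and Car2 differed by -7.57 ± 0.31 and -8.59 ± 0.47 against KO spleens and by -5.92 ± 0.3 and -7.51 ± 0.45 against WT spleens. Trim10, a red cell RING protein, was well above background in no line and at least 237.0-fold lower than in KO spleens and 164.0-fold lower than in WT spleens. Tmcc2, a membrane protein, was at least 78.1-fold lower than in WT spleens, with no line above background. Bpgm, which makes the haemoglobin effector 2,3-bisphosphoglycerate, was well above background in all 9 lines and fell by only 1.12 ± 0.32 and 1.25 ± 0.3. Tspo2, a red cell membrane protein of the TSPO family, differed by -6.34 ± 0.46 and -5.47 ± 0.44.

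The 6 haem enzymes of all cells passed the background test in 9 of 9 lines. Urod, the decarboxylase, ran from 4.23 to 5.16 with a median of 4.76 in the lines, from 3.91 to 5.32 with a median of 4.81 in KO spleens and from 3.69 to 4.7 with a median of 4.24 in WT spleens. The groups overlapped, and Urod was the only member higher in the lines, by 0.52 ± 0.19 against WT spleens (limma adjusted p = 0.0166). Against KO spleens its difference was 0.00 ± 0.19. Alad, the dehydratase, differed by -0.4 ± 0.26 and 0.28 ± 0.25, Cpox, the coproporphyrinogen oxidase, by -0.53 ± 0.3 and 0.28 ± 0.29, and Fech, which inserts the iron, by -0.44 ± 0.34 and 0.01 ± 0.33, none of them called. The probes of Fech disagreed: its dimmer probe was called lower in the lines, with differences of -1.15 ± 0.35 against KO spleens (limma adjusted p = 0.00641) and -0.81 ± 0.34 against WT spleens (0.0376). Uros, the synthase that closes the ring, fell by 1.22 ± 0.16 and 0.59 ± 0.16, and Ppox, the protoporphyrinogen oxidase, by 0.67 ± 0.15 and 0.45 ± 0.14. Under median centring, where all tested genes shifted by 0.77 and 0.71 in place of 0.15 and 0.11, Uros and Ppox were no longer lower than in WT spleens (0.012 and 0.15), and 2 and 5 members were called higher.

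The mitochondrial carriers differed from each other in the same way. Slc25a37, the iron importer mitoferrin, ran from 0.85 to 2.23 in the lines, from 3.59 to 5.25 in KO spleens and from 3.81 to 5.2 in WT spleens, with no overlap, and fell by 2.86 ± 0.25 and 2.77 ± 0.24. Its dimmer probe was also called lower but differed by less, at -1.48 ± 0.19 and -1.17 ± 0.18. Slc25a38, the glycine carrier, was not called, at -0.19 ± 0.12 and -0.16 ± 0.12. Median centring turned it to 0.424 and 0.438. In all, 22 members lay below every KO spleen in every line, beside 17.3% of all tested genes, and 20 lay below every WT spleen, beside 18.4%.

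**Figure D2:**
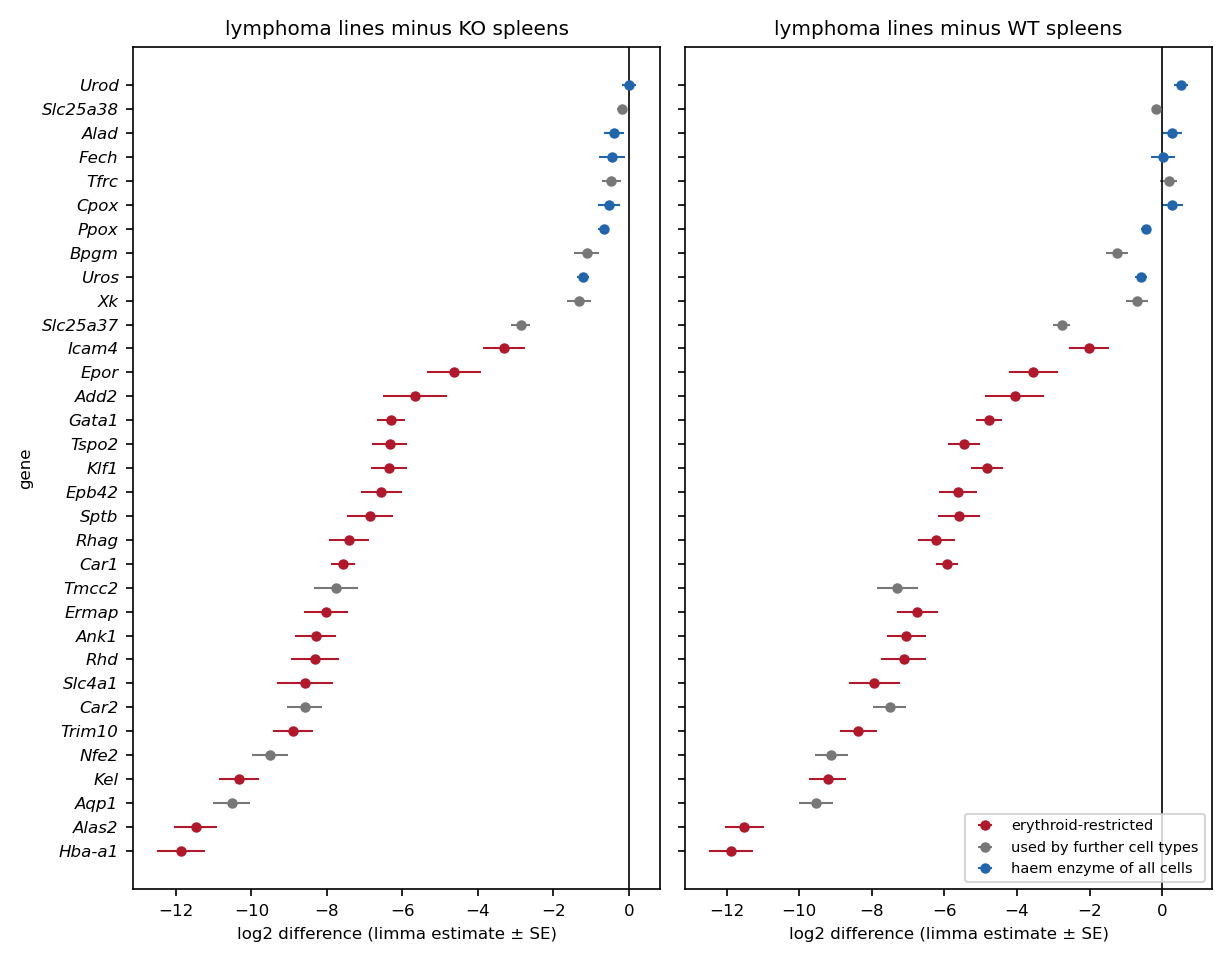
Log2 difference (limma estimate ± SE) of each of 33 members, lymphoma lines minus KO spleens on the left and minus WT spleens on the right, coloured by class. The 6 haem enzymes of all cells lie between -1.22 and 0.52, and the 18 red-cell-restricted members between -11.88 and -2.02, where differences of members with few or no lines above background rest on background readings.

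By class, the 18 tested restricted members averaged -8.04 to -2.1 per gene in the lines: 4 were well above background in all 9 lines, 10 in some and 4 in none. The 6 haem enzymes averaged -1.49 to 4.73 and were above background in all lines. Of the 9 tested members with wider use, 5 were above background in all lines, 2 in some and 2 in none.

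The lines were not alike. Line 3 had an Hba-a1 level of 1.01, against at most -3.39 in the other lines, and an Alas2 level of -3.85, against at most -6.37. Its Slc4a1 level, -0.58, was also the highest of the lines, but its Gata1 and Klf1 levels were not. The beta globin Hbb-bt, outside the list, was instead highest in line 1, at 4.96, with 3.89 in line 3. Line 3 was also apart outside the red cell genes. It had 7 of 14 neutrophil genes well above background, against 1 to 3 in the other lines. Of 15 red pulp macrophage genes it had 11, against 5 or 6. However, the log2 of their summed level, 2.85, lay within the 2.64 to 4.62 of the lines. The cause was not tested. Lines 4 and 5, which shared a slide, had Epor levels of 1.08 and 1.12, against -3.68 to -2.12 in the others. The same 2 lines had the lowest Alad (3.2 and 2.83) and the lowest Icam4 (-5.25 and -5.57). Over all tested genes, each centred on its mean over the lines, lines 4 and 5 correlated at r = 0.63, while no other pair exceeded 0.15 and the 3 lines of slide 1 gave -0.07 to 0.15 between them. Whether lines 4 and 5 share an origin is not given in the sources used here, and the part of the slide was not tested. Add2, the beta adducin of the membrane skeleton, stood at -1.72 in line 2 and at most -5.1 elsewhere, and 2 of 9 lines had it above background. Bpgm had the narrowest range over the lines, 1.49-fold.

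**Figure D3:**
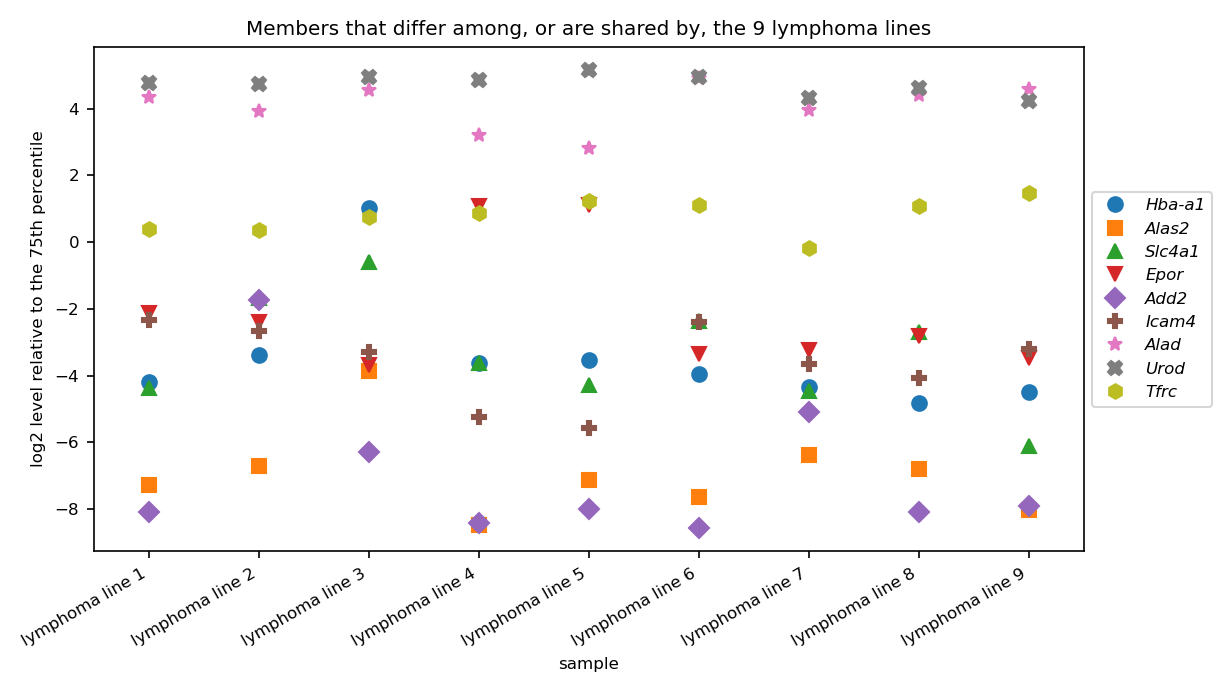
Log2 level of 9 members (markers) in each of the 9 lymphoma lines, to be read along 1 marker. Line 3 stands out for Hba-a1 (1.01) and Alas2 (-3.85), lines 4 and 5 for Epor (1.08 and 1.12) and low Alad, and line 2 for Add2 (-1.72).

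Among the spleens the members varied far more than most genes. The range over the 13 spleens had a median of 3.34 over the members, beside 0.85 over all tested genes. The SD had a median of 1.01 over members in KO spleens and 0.85 in WT spleens, beside 0.23 and 0.21 over all tested genes. Restricted members spanned 2.32 to 4.66 and the haem enzymes 0.92 to 2.41. Sptb was widest, with a 25.2-fold range, and Slc25a38 narrowest, with a 1.49-fold range. KO spleen 6 and WT spleen 6, which shared slide 5, and WT spleen 1, on slide 2, were the lowest spleens for most restricted members: Rhag stood at -3.25, -3.38 and -3.92 there, while the other spleens lay between -1.5 and 0.52.

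Between KO and WT spleens 1 member passed the test. With sex in the model all 33 estimates were positive, beside 5703 of all 13765 tested genes. The members move together within a spleen, so these signs are not separate events. The median estimate was 0.89, beside -0.05 over all tested genes. Of the 33 members 1 was called higher and 0 lower, beside 1.61% of all tested genes called higher and 2.09% lower. All KO spleens are female, so each estimate is the KO mean minus the mean of the 3 WT females. One of these females is WT spleen 6, which was low for most restricted members, and the 4 WT males add only to the spread. With no term for sex the median was 0.81. The plain group means were lower in KO spleens for 3 members: they were 4.55 in KO and 4.59 in WT spleens for Alas2, 8.39 and 8.4 for Hba-a1, and 3.29 and 3.43 for Bpgm. An unadjusted limma p under 0.05 was reached by 6 of 33 members, beside 2815 of all 13765 tested genes, so this count does not set the members apart. The call was Uros, which ran from -0.81 to 0.12 with a median of -0.25 in KO spleens and from -1.23 to -0.69 with a median of -0.86 in WT spleens. Its difference was 0.72 ± 0.18 (limma adjusted p = 0.0453), and the groups overlapped through KO spleen 6. Leaving out any 1 spleen other than KO spleen 6 ended this call, and 5 members were called without KO spleen 6. Car1 (1.67 ± 0.52), Klf1 (1.57 ± 0.7), Add2 (1.56 ± 0.74) and Gata1 (1.51 ± 0.54) had the largest estimates and Hba-a1 (0.21 ± 0.45) and Slc25a38 (0.03 ± 0.12) the smallest. No member lay higher in every KO spleen than in every WT spleen, beside 2.24% of all tested genes. With slide in the model the median was 0.31 and 0 members were called. Within slides 2 to 6 the median difference was 2.02, 0.55, 0.33, 0.11 and 0.87, each from 2 or 3 spleens, and 0, 5, 9, 12 and 5 members were lower in KO spleens there. Alas2 was lower in KO spleens within slides 3 to 6. Sex moved no member past the threshold.

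Lists of other genes were read in the same fit. The 14 neutrophil genes had a median KO minus WT difference of 0.95 and the 13 proliferation genes 0.72, with none called in either list, while 6 of 11 NK cell genes fell, by up to 1.29, beside the 2.09% of all tested genes called lower. The log2 of the summed level of the neutrophil list ran from 7.98 to 9.71 in KO spleens and from 7.78 to 10.06 in WT spleens. Their part in the members' differences was not tested.

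Across the 13 spleens the members tracked Alas2. Of 32 members, 10 correlated positively with it and 0 negatively (permutation test, adjusted over 13743 genes), beside 0.582% of all tested genes, and the median r was 0.79. The likeness was closest for Hba-a1 (r = 0.971, rho = 0.978), Bpgm (0.962, 0.918), Slc25a37 (0.961, 0.929) and Slc4a1 (0.94, 0.846). It was weakest for Uros (r = 0.362), Slc25a38 (0.489), Car1 (0.498), Alad (0.567) and Gata1 (0.591). By rank 3 members were called, beside 27 of all 13743 genes. Without the 2 spleens farthest from the median of Alas2, KO spleen 6 and WT spleen 6, the median r was 0.7. There 1 member, Hba-a1, was called (r = 0.951), beside 5 of all genes, so most of these calls were lost. Fewer spleens also make a call harder to reach. The part of those 2 spleens and that of the smaller number were not told apart. With slide means taken out 2 members were called, at a median r of 0.58, beside 32 of all genes. With genotype means taken out 28 members were called, at a median r of 0.94, beside 291 of all genes. Of the 31 other red cell genes 5 were called, at a median r of 0.76, and of 12 B cell genes none was, at -0.54.

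**Figure D4:**
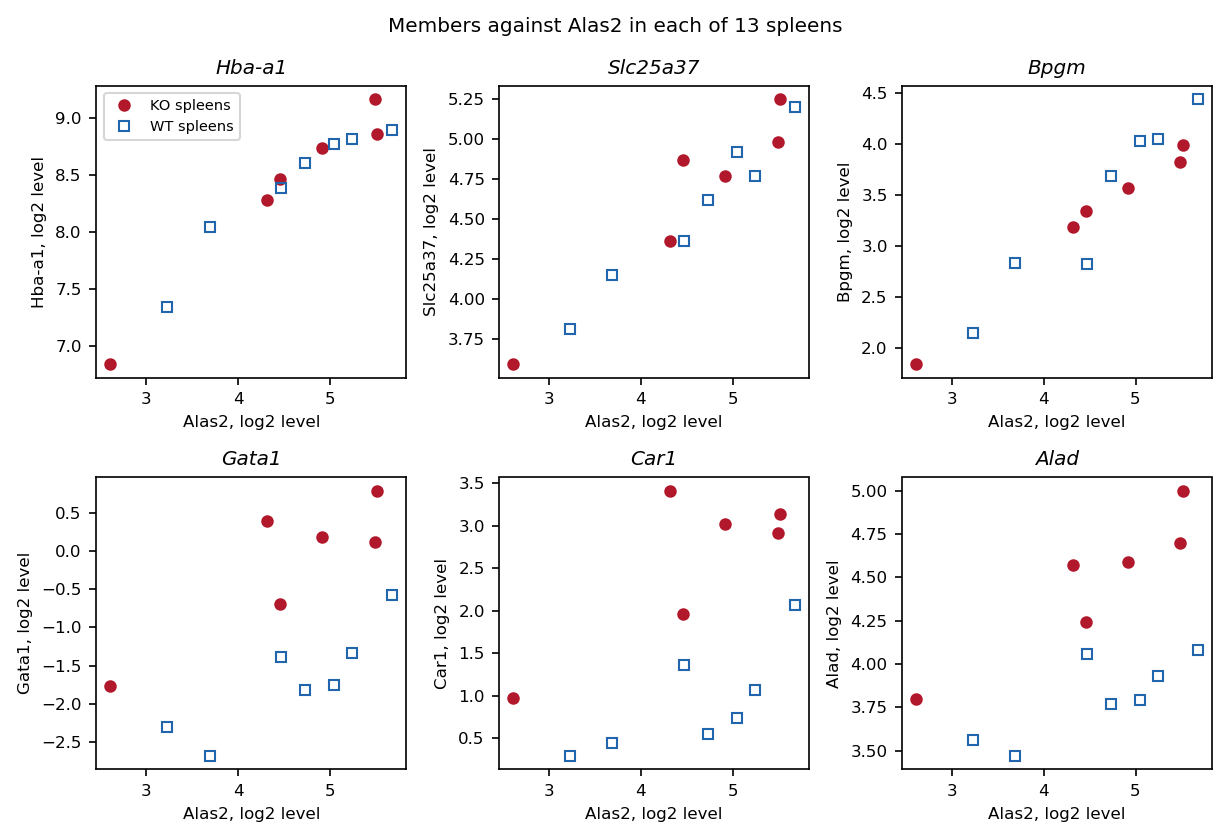
Log2 level of 6 members (vertical axes) against that of Alas2 (horizontal axes) in 6 KO spleens (filled circles) and 7 WT spleens (open squares). For Hba-a1, Slc25a37 and Bpgm the genotypes share a line, and for Gata1, Car1 and Alad the KO spleens lie above WT spleens of like Alas2.

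A comparison added after seeing the data set the genotypes side by side at equal Alas2, with the Alas2 level as a covariate. Of 32 members 14 were higher in KO spleens and 0 lower, beside 2.7% of all tested genes higher and 2.64% lower. The called members were Car1 (1.51 ± 0.34), Gata1 (1.33 ± 0.26), Klf1 (1.33 ± 0.29), Car2 (1.14 ± 0.23), Icam4 (1.11 ± 0.24), Ank1 (1.06 ± 0.21), Sptb, Ermap, Epor (0.84 ± 0.17), Cpox (0.74 ± 0.17), Uros (0.68 ± 0.15), Tspo2, Alad (0.56 ± 0.12) and Urod (0.43 ± 0.09). Hba-a1 (0.05 ± 0.13), Bpgm (0.1 ± 0.13), Tmcc2 (0.14 ± 0.24) and Slc25a37 (0.2 ± 0.1) were not. The count rests on few spleens: it was 0 without WT spleen 7, 1 without WT spleen 6, 5 without WT spleen 5, 7 without KO spleen 6, 9 without KO spleen 3, and 0 with slide in the model or after normexp background correction.

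**Figure D5:**
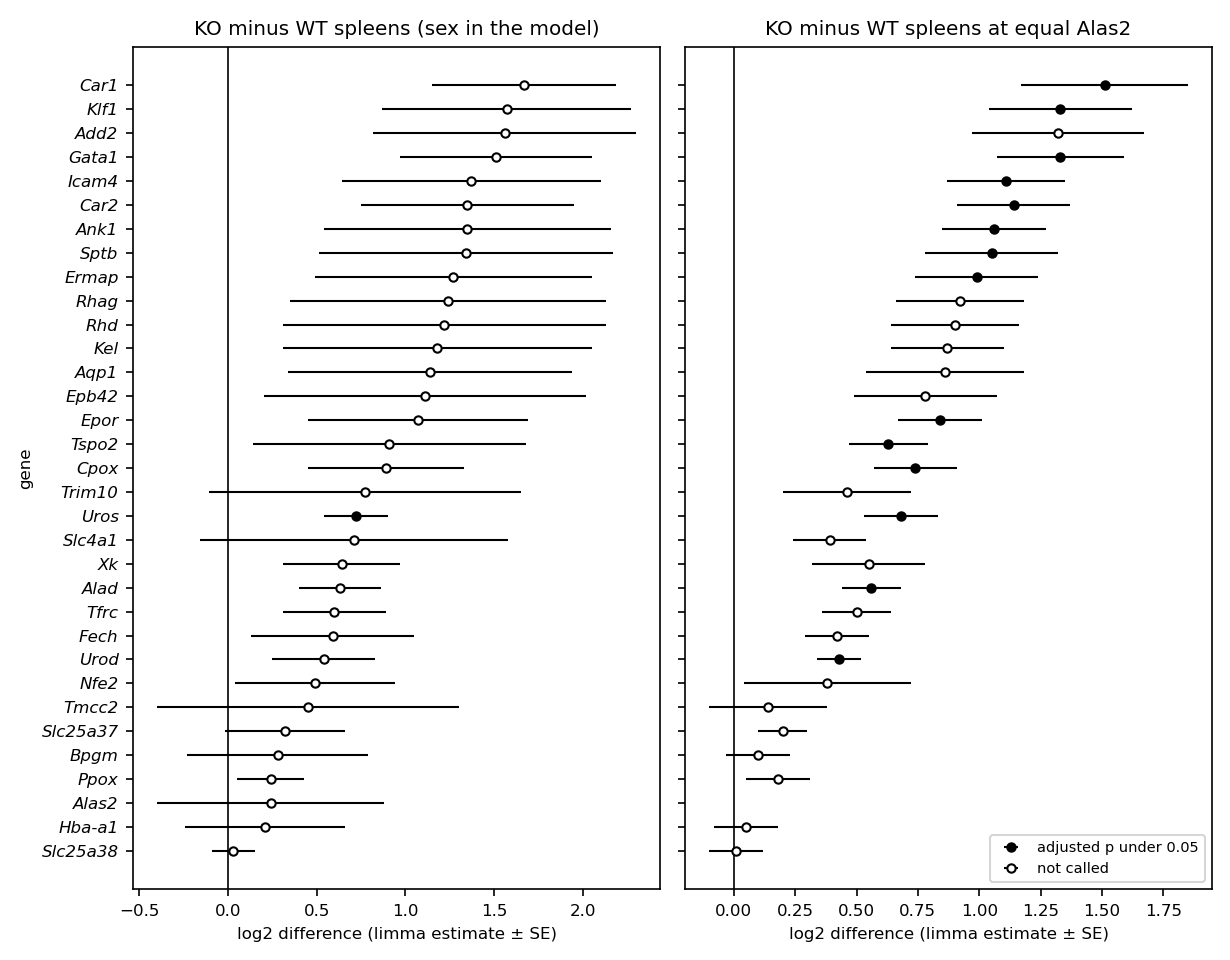
Log2 difference (limma estimate ± SE), KO minus WT spleens, for 33 members with sex in the model (left) and for 32 at equal Alas2 (right). Filled points passed an adjusted p of 0.05: Uros on the left and 14 members on the right, none of them Hba-a1 or Bpgm.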

How the data were processed

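Total RNA was labelled with Cy3 and hybridised to 1-colour Agilent arrays. The authors deposited scanner intensities made with Agilent Feature Extraction 10.7.1.1, per the file headers. The deposited log2 value table holds the same signal centred per probe, and was used as an alternative. Flags for signal well above background are other values deposited in the scanner files. The processed signal, averaged over spots of a probe, was set on the log2 scale and scaled to the 75th percentile of each array. Control spots and outlier flags were left out, and the brightest probe stood for a gene. A gene was tested where its probe was well above background in at least 6 of 22 samples. Line 8 has 2 arrays and counted as well above background where at least 1 of them was. A stricter rule, asking for both, was briefly used after results had been seen, because its counts matched an earlier account of these data, and was then set aside for the first rule. It tests 13743 genes in place of 13765, gives the same counts of member calls, and lowers the number of lines above background for Alas2 (1 in place of 2), Rhd (7 in place of 8) and Xk (6 in place of 7). Groups were compared with limma 3.58.1 and Benjamini-Hochberg adjustment over all tested genes, with sex in the model for spleens, and the analysis was tested on simulated data. Correlations used 100000 permutations. All members are named, and other genes by the size of their call. The members and lists were chosen with earlier results of these data known. Some genes fixed for description are not reported here.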

Additional observations from a re-analysis of the deposited data

Results flagged for a closer look

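Of 99 sets of 1 member in 1 group, 12 held a sample far from the rest by Dixon's test, which chance gives in about 1 of 20. Among the lines, Hba-a1 (1.01) and Alas2 (-3.85) were high in line 3, and Slc25a37 (0.85) was low in line 9. KO spleen 6 was lowest of its group for Epb42 (-4.2), Sptb (-2.5), Trim10 (-0.94), Rhag (-3.25), Rhd (0.6), Tspo2 (1.35), Cpox (0.09) and Bpgm (1.84). WT spleen 2 was high for Nfe2 (3.63). The members move together within a spleen, so the 8 values of KO spleen 6 are not separate events.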

How the results depend on the processing

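The counts of members called lower in the lines ranged from 27 to 29 against KO spleens and from 26 to 27 against WT spleens with 1 sample left out, and those called higher stayed at 0 and 1. Median centring gave 2 and 5 members higher, quantile normalisation 0 higher against WT spleens. Under median centring Urod (0.615) and Slc25a38 (0.424) against KO spleens and Uros (0.012), Ppox (0.15) and Slc25a38 (0.438) against WT spleens turned positive. Normexp, run on median signals because the planned mean signal is not used here, moved the members' median to -3.03 and -2.47. For KO against WT spleens, 0 to 5 members were called higher and 0 lower with 1 spleen left out, 0 with normexp, no filter on dim probes, slide in the model or female spleens only, and 4 with no term for sex. At equal Alas2 the count of 14 became 0 to 20 with 1 spleen left out, 0 with normexp or with slide in the model, 6 in female spleens, 3 with Hba-a1 in place of Alas2 and 2 without slide 5, all chosen after seeing the data. The 10 correlations with Alas2 became 3 by rank, 28 with genotype means out, 2 with slide means out, 1 without the 2 farthest spleens and 23 with genotype and slide means out. Over all 13743 genes the 80 positive calls became 27 by rank, in either direction, and 291, 32, 5 and 285 in the other settings, in the same order. No paired analysis was possible because replicate numbers were given in accession order and pair no samples. Signal near background limits the levels of 6 members that no line had well above it. It also limits Sptb (1 of 9 lines above background), Alas2, Gata1, Nfe2 and Add2 (2 of 9 each), Ermap (3) and Ank1 (4). The causes of these changes were not tested.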
